A study of Mus musculus with 12 samples.

Results

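The 6 genes described here encode the core-binding factors and a pair of corepressors that act with them: Runx1, Runx2 and Runx3, their partner subunit Cbfb, and the corepressors Cbfa2t2 and Cbfa2t3. They were the rows of the count table that carry these mouse symbols. All 6 were found among 36491 genes in the table, and all 6 passed the filter on low counts that left 18875 genes for testing. Runx2, Runx3 and Cbfa2t3 had been noted for large measured differences with LPS or with head shielding in these same libraries, so their values are given as a description without a test. Tests are given for the other 3, Runx1, Cbfb and Cbfa2t2.

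Expression was measured by RNA-seq in cells taken from the brain with CD11b magnetic beads, from adult male C57BL/6J wild type mice aged 6 months. All mice had a bone marrow transplant, ate PLX5622, a CSF1 receptor inhibitor that depletes microglia, for 2 weeks, and returned to standard chow for 6 weeks. They then received 50 µg of the bacterial endotoxin lipopolysaccharide (LPS) or saline by intraperitoneal injection, and cells were taken 6 hours later. The 4 groups of 3 libraries were transplant without a head shield plus LPS (unshielded LPS), transplant without a shield plus saline (unshielded without LPS), transplant with a shield plus LPS (shielded LPS) and transplant with a shield plus saline (shielded without LPS). Every group, including the saline groups, therefore carried the transplant and the inhibitor. The titles mark unshielded mice as wbi and shielded mice as hc. In this design other effects of the shield on the brain cannot be told apart from a change in marrow-derived cells. The cells were isolated as CD11b-positive cells and are a mixture: resident microglia and macrophages from the transplanted marrow were not separated. The labels do not say whether libraries of a group came from separate animals, so the p-values below cover the variation among these libraries, part of which may be technical.

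Runx proteins bind DNA through the Runt domain, and Cbfb, which does not bind DNA itself, raises their affinity for it. Depending on the partners they recruit, the complexes activate or repress genes. Runx1 is required for the emergence of blood stem cells and is a regulator of myeloid cells including microglia, Runx2 is known for bone formation, and Runx3 for cytotoxic T cells and for dendritic cell and macrophage lineages. Cbfa2t2 and Cbfa2t3 belong to the family of RUNX1T1, the gene fused to RUNX1 in a human leukaemia, and they bring histone deacetylase complexes to transcription factors such as Tal1 and E proteins.

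Totals ran from 18090977 to 60495968 counts per library. For shielded libraries 2 and 3 without LPS the title says that no LPS was given and the treatment field says LPS. They were grouped by title. Ccl5, a chemokine gene strongly raised by LPS, had 3.33 and 2.32 CPM (read counts scaled to library size by the TMM method) in these 2 libraries, within the 1.96 to 8.91 CPM of the other libraries without LPS and below the lowest LPS library, 147 CPM. Member values that use the shielded mice without LPS are given with and without them, and list counts likewise at the end of the account of the lists. Without them 1 shielded library lacking LPS remains, and the fit then assumes that this library varies like those of the other groups. Markers of microglia were present in all 12 libraries, Tmem119 at 929 CPM or more, and markers of marrow-derived brain macrophages were higher in unshielded than in shielded mice. In bulk samples such as these, fewer cells of a type and less RNA per cell cannot be told apart.

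The table of 300-base windows around annotated starts, from RefSeq on GRCm38.p6, held a distal and a proximal window for Runx1, Runx3 and Cbfa2t3 and 1 window each for Runx2, Cbfb and Cbfa2t2. They were read because the distal windows of Runx1 and Runx3 and the window of Runx2 share a stretch of 18 bases with 2 copies of the Runx core motif TGTGGT on the opposite strand, ACCACA. The stretches below are the 30 bases that end with the shared run, which is in capitals, 5′ to 3′ on the gene's strand. Those of Runx1 (minus strand, chr16:92826031-92826060) and Runx2 (minus strand, chr17:44814589-44814618) lie after the start, and that of Runx3 (plus strand, chr4:135120497-135120526) lies before it.
Runx1: ggacctcataaaCAACCACAGAACCACAAG
Runx2: tcgcctcacaaaCAACCACAGAACCACAAG
Runx3: ggtctggtccctCAACCACAGAACCACAAG

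The run begins 27 bases after the start of Runx1, 22 bases after that of Runx2 and 136 bases before that of Runx3, counting the start as base 1. It was taken as the longest stretch common to these 3 windows, so that they hold it was fixed by that choice. Of 32851 windows in the table, 4 held it: these 3 genes and Gm16225, whose window lies beside the Runx3 start. Counting TGTGGT and TGCGGT on both strands, Runx1 had 2 matches in its distal window, Runx3 had 2 in its distal window, and Runx2 had 4. Cbfa2t3 had 1 match, to TGCGGT, in its distal window, and the windows of Cbfb and Cbfa2t2 and the proximal windows of Runx1, Runx3 and Cbfa2t3 in the table had none. At least 1 match was found in 22.4% of all windows, at least 2 in 2.9% and at least 3 in 0.3%. All matches of Runx1 and Runx3 and 2 of the 4 of Runx2 lie in the shared run. The windows were read for that run, so these shares are no test of them. A match is a description of the letters in these windows. The 150 bases upstream of these starts, with ACCACA and the other motif letters in capitals where they occurred, are shown for Runx2 (minus strand, chr17:44814628-44814777) and Runx3 (plus strand, chr4:135120495-135120644), the Runx genes that differed between shielded and unshielded mice.
Runx2: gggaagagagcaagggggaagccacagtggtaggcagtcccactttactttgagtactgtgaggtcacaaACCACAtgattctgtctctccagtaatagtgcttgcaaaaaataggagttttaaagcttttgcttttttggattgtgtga
Runx3: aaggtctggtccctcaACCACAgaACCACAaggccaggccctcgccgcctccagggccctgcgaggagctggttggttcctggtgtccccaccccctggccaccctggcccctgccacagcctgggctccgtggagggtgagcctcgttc

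The genes of this set divided by whether their levels followed LPS, the shield or both. Fold changes are given as log2 values with their standard error (SE), LPS over no LPS or unshielded over shielded. Whether groups overlapped is given below as a description. The share of all genes whose groups did not overlap is not given here, so it is no test. Runx1 and Cbfb were higher with LPS in both kinds of mice, Runx3 and Runx2 were higher in unshielded mice with and without LPS, Cbfa2t3 was lower with LPS, and Cbfa2t2 stayed between 17.7 and 23.8 CPM in all 12 libraries.

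**Figure D1:**
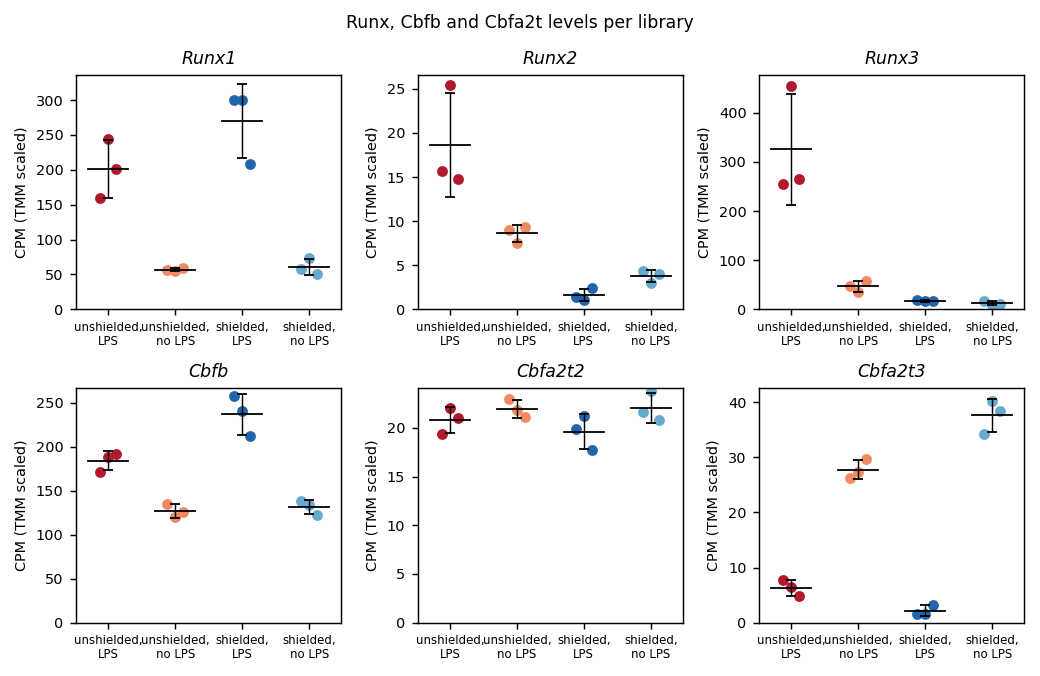
Level of each of the 6 genes in each of the 12 libraries, in CPM (linear axis from 0), by group. Points are libraries, horizontal lines the group means and error bars the standard deviation (n = 3). Runx3 reached 256 to 456 CPM in unshielded LPS libraries and stayed at or below 56.8 CPM elsewhere.

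Runx3, a regulator of cytotoxic T cell and myeloid fates, had 256, 456 and 266 CPM in the 3 unshielded LPS libraries, 48.1, 34.5 and 56.8 CPM in unshielded mice without LPS, 19.1, 16.3 and 16.3 CPM in shielded LPS libraries, and 16.7, 8.08 and 11.4 CPM in shielded mice without LPS. The values of unshielded mice did not overlap those of shielded mice, with or without LPS, and unshielded LPS libraries lay above all others. The mean in unshielded mice was 326 ± 113 CPM with LPS against 46.5 ± 11.3 CPM without (SD, n = 3 each), a ratio of 7.01 and a log2 fold change of 2.81 ± 0.30 (SE).
In shielded mice the means were 17.2 ± 1.64 CPM with LPS against 12.04 ± 4.33 CPM without, a log2 fold change of 0.51 ± 0.29, and the groups overlapped. Without shielded libraries 2 and 3 lacking LPS this value was 0.05. After LPS the unshielded mean was 18.9-fold the shielded mean (log2 fold change 4.24 ± 0.32), and without LPS it was 3.86-fold (1.94 ± 0.30, or 1.48 without those libraries). The LPS effect in unshielded mice exceeded that in shielded mice by 2.30 ± 0.41, or 2.75 without those libraries.

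Runx2, the bone regulator that also marks some haematopoietic and dendritic cells, was the rarest Runx gene. It had 15.7, 25.4 and 14.8 CPM in unshielded LPS libraries, 8.98, 7.51 and 9.31 CPM in unshielded mice without LPS, 1.39, 1.03 and 2.37 CPM in shielded LPS libraries, and 4.37, 2.97 and 3.96 CPM in shielded mice without LPS. No pair of these 4 groups overlapped, and LPS libraries were the highest in unshielded mice and the lowest in shielded mice. Its log2 difference with LPS was 1.11 ± 0.27 in unshielded mice (2.16-fold) and -1.24 ± 0.30 in shielded mice (2.36-fold lower), or -1.44 without shielded libraries 2 and 3 lacking LPS. The difference between these 2 LPS effects was 2.34 ± 0.40, or 2.55 without them. Unshielded mice were 11.7-fold above shielded mice after LPS (log2 fold change 3.53 ± 0.31) and 2.28-fold above them without LPS (1.19 ± 0.28, or 0.97 without those libraries). In shielded LPS libraries Runx2 rested on 46, 26 and 74 counts, and in unshielded LPS libraries on 879, 1303 and 791. An antisense transcript, Runx2os1, shares 519 exon bases with Runx2 on the opposite strand and had at most 20 counts in any library, so its own reads were few. The strand setting of the counting is not given in the sources used here, so reads from these 2 cannot be told apart where the exons overlap.

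Runx1, the DNA-binding subunit of blood and microglial lineages, was set apart from Runx2 and Runx3 by rising with LPS in both kinds of mice. It had 160, 244 and 201 CPM in unshielded LPS libraries, 56.6, 55.3 and 59.2 CPM in unshielded mice without LPS, 300.6, 300.5 and 208 CPM in shielded LPS libraries, and 57.4, 72.9 and 51.2 CPM in shielded mice without LPS. Every LPS library lay above every library without LPS. Runx1 rose 3.54-fold in unshielded mice (log2 fold change 1.82 ± 0.18, adjusted p = 9.48e-06) and 4.46-fold in shielded mice (2.16 ± 0.19, adjusted p = 9.62e-07, edgeR quasi-likelihood test with Benjamini-Hochberg adjustment over all genes tested). An antisense gene, Gm26626, shares 106 exon bases with Runx1 and had at most 33 counts in any library. Without shielded libraries 2 and 3 lacking LPS the shielded value was 2.24 (adjusted p = 0.000178). The difference between the LPS effects was -0.34 ± 0.25 (adjusted p = 0.389), or -0.41 without them (adjusted p = 0.516).
Between unshielded and shielded mice Runx1 did not pass the test without LPS, at 57.0 ± 2.0 against 60.5 ± 11.2 CPM (log2 fold change -0.08 ± 0.18, adjusted p = 0.874, edgeR), or -0.02 without those libraries (adjusted p = 0.992). After LPS the means were 202 ± 41.8 CPM in unshielded and 270 ± 53.3 CPM in shielded mice, with a log2 fold change of -0.42 ± 0.18 and an adjusted p of 0.0709. That call depended on 2 libraries. Without shielded LPS library 3 the value was -0.63 with an adjusted p of 0.00492, and without unshielded LPS library 2 it was -0.54 with an adjusted p of 0.0274.

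Counting each gene per kilobase of exon sets the 3 Runx levels beside each other, provided that reads cover the exons evenly. In this scale Runx3 made up 77.1 ± 2.7% of the Runx level in unshielded LPS libraries, 61.4 ± 5.0% in unshielded mice without LPS, 13.4 ± 2.1% in shielded LPS libraries and 30.5 ± 9.5% in shielded mice without LPS (SD, n = 3 each). Runx1 made up 20.4 ± 2.8%, 32.1 ± 4.6%, 85.8 ± 2.5% and 64.0 ± 10.4% in the same 4 groups, and Runx2 at most 6.89% of any library's sum. On this scale Runx3 was the most abundant Runx transcript in every unshielded library, and Runx1 in every shielded one. In CPM, not divided by length, Runx1 was above Runx3 in all 3 unshielded libraries without LPS, and Runx3 was above Runx1 in the 3 unshielded LPS libraries. The summed Runx level was 84.0 ± 26.3 CPM per kb in unshielded LPS libraries, 15 ± 2.5 CPM per kb in unshielded mice without LPS, 26.1 ± 4.5 CPM per kb in shielded LPS libraries and 7.86 ± 0.82 CPM per kb in shielded mice without LPS. Lengths are unions of annotated exons, so they take no account of which start site or isoform was used. The RNA was linearly amplified, and whether reads covered the exons evenly was not tested.

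**Figure D2:**
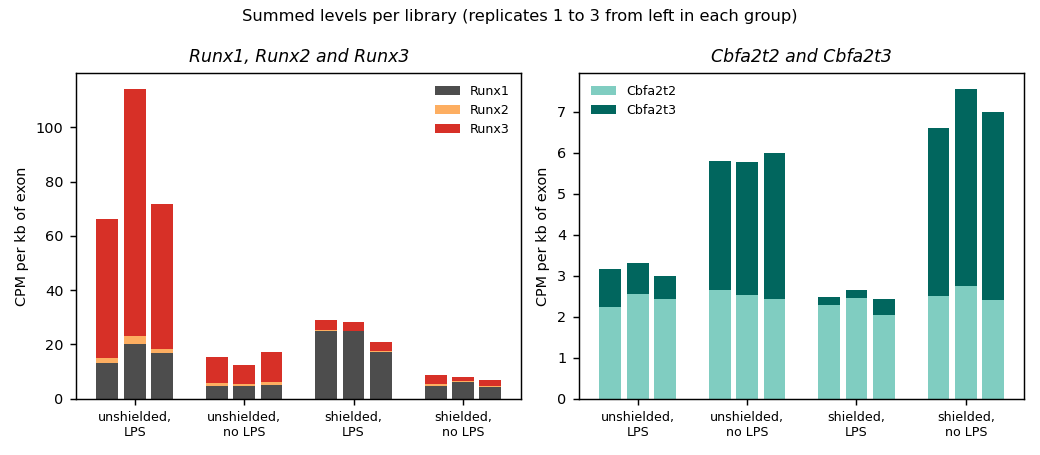
Levels per library in CPM per kb of exon, stacked for Runx1, Runx2 and Runx3 (left) and for Cbfa2t2 and Cbfa2t3 (right), with replicates 1 to 3 from left in each group. Runx3 is the larger part of every unshielded bar and Runx1 of every shielded bar, and Cbfa2t3 shrinks to 10.3% of the pair in shielded LPS libraries.

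Cbfb, the subunit shared by all 3 Runx proteins, rose with LPS by less than Runx1. It had 172, 188 and 192 CPM in unshielded LPS libraries, 135, 120 and 126 CPM in unshielded mice without LPS, 258, 241 and 212 CPM in shielded LPS libraries, and 138, 134 and 123 CPM in shielded mice without LPS. LPS libraries lay above libraries without LPS in both kinds of mice, and the shielded LPS libraries above the unshielded LPS ones. The increase with LPS was 1.45-fold in unshielded mice (log2 fold change 0.54 ± 0.09, adjusted p = 0.000605) and 1.80-fold in shielded mice (0.85 ± 0.10, adjusted p = 7.28e-06, edgeR). With library totals in place of TMM scaling the log2 values were 0.24 in unshielded mice (adjusted p = 0.00583) and 0.50 in shielded mice (adjusted p = 2.18e-05). Without shielded libraries 2 and 3 lacking LPS the shielded value was 0.78 (adjusted p = 0.00241).
After LPS Cbfb was lower in unshielded than in shielded mice, at 184 ± 10.7 against 237 ± 23.3 CPM (log2 fold change -0.36 ± 0.09, adjusted p = 0.00767, edgeR). Without LPS the means were 127 ± 7.75 and 132 ± 8.0 CPM, and the difference of -0.05 ± 0.09 did not pass the test (adjusted p = 0.852), nor did -0.13 without those libraries (adjusted p = 0.828). The difference of the LPS effects was -0.31 ± 0.13 (adjusted p = 0.141), or -0.25 without them (adjusted p = 0.516). It passed the test without shielded LPS library 3, at -0.45 with an adjusted p of 0.0177.
Set against the summed Runx level per kb, the Cbfb level per kb was 0.664 ± 0.165 of it in unshielded LPS libraries, 2.47 ± 0.35 in unshielded mice without LPS, 2.64 ± 0.25 in shielded LPS libraries and 4.82 ± 0.22 in shielded mice without LPS. Per kb, the Runx transcripts together exceeded Cbfb in the unshielded LPS libraries. In CPM the Runx sum, 546 ± 157 in unshielded LPS libraries, 112 ± 14.1 in unshielded mice without LPS, 289 ± 53.5 in shielded LPS libraries and 76.3 ± 8.90 in shielded mice without LPS, exceeded Cbfb in the libraries of both LPS groups.

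Cbfa2t3, the corepressor also called ETO2, had 7.72, 6.37 and 4.76 CPM in unshielded LPS libraries, 26.3, 27.3 and 29.7 CPM in unshielded mice without LPS, 1.63, 1.54 and 3.27 CPM in shielded LPS libraries, and 34.4, 40.2 and 38.4 CPM in shielded mice without LPS. No pair of the 4 groups overlapped, and the order was shielded without LPS, unshielded without LPS, unshielded LPS, shielded LPS. With LPS the mean was 4.42-fold lower in unshielded mice (log2 fold change -2.14 ± 0.23) and 17.6-fold lower in shielded mice (-4.12 ± 0.26, or -3.99 without shielded libraries 2 and 3 lacking LPS). The difference of the LPS effects was 1.98 ± 0.33, or 1.85 without them. After LPS unshielded mice were 2.93-fold above shielded mice (log2 fold change 1.54 ± 0.25), and without LPS the log2 difference was -0.44 ± 0.22, or -0.32 without those libraries. In shielded LPS libraries the gene rested on 54, 39 and 102 counts. It shares 295 exon bases with an antisense gene, Gm10612, which is read below 1 CPM in every library.

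Cbfa2t2, the other corepressor (MTGR1), had 19.4, 22.1 and 21.0 CPM in unshielded LPS libraries, 22.9, 21.8 and 21.1 CPM in unshielded mice without LPS, 19.9, 21.3 and 17.7 CPM in shielded LPS libraries, and 21.6, 23.8 and 20.8 CPM in shielded mice without LPS. All 4 groups overlapped with their neighbours. The log2 fold change with LPS was -0.08 ± 0.09 in unshielded mice (adjusted p = 0.519) and -0.17 ± 0.09 in shielded mice (adjusted p = 0.116), and between unshielded and shielded mice it was -0.009 ± 0.09 without LPS (adjusted p = 0.981) and 0.09 ± 0.09 after LPS (adjusted p = 0.45, edgeR). Without the 2 libraries with conflicting labels the values were -0.14 with LPS in shielded mice (adjusted p = 0.443) and 0.01 for the shield without LPS (adjusted p = 0.99, edgeR). With library totals in place of TMM scaling it was called lower with LPS, by -0.38 in unshielded mice (adjusted p = 0.000844) and -0.52 in shielded mice (adjusted p = 4.61e-05). With at least 10 counts required in every library the shielded value was -0.31 (adjusted p = 0.00306). Scaling by library totals also moved the median over all genes to -0.36 in unshielded and -0.49 in shielded mice. Cbfa2t3 made up 23.7 ± 5.1% of the summed Cbfa2t2 and Cbfa2t3 level per kb in unshielded LPS libraries, 56.6 ± 2.5% in unshielded mice without LPS, 10.3 ± 5.0% in shielded LPS libraries and 63.8 ± 1.7% in shielded mice without LPS.
Runx1t1, the family member named for the leukaemia fusion, was at 3.04 ± 1.09 and 4.46 ± 0.42 CPM in unshielded mice with and without LPS, and at 2.27 ± 1.82 and 5.60 ± 1.47 CPM in shielded mice. It fell with LPS in shielded mice (log2 fold change -1.30 ± 0.46, adjusted p = 0.0248) and had -0.55 ± 0.44 in unshielded mice (adjusted p = 0.334, edgeR). Without the 2 libraries with conflicting labels the shielded value was -1.24 (adjusted p = 0.136). By library it had 0.995, 1.46 and 4.35 CPM in shielded LPS libraries, the third of which also had the highest summed neuron markers of its group.
Markers of neurons and oligodendrocytes were lower with LPS in shielded mice as well. The 9 neuron markers summed to 129 to 243 CPM in unshielded LPS libraries, 303 to 352 CPM in unshielded mice without LPS, 36.5, 68.2 and 181 CPM in shielded LPS libraries and 203 to 376 CPM in shielded mice without LPS. The 8 oligodendrocyte markers summed to 1058 to 1897 CPM, 1772 to 2280 CPM, 425 to 1323 CPM and 1781 to 2808 CPM in the same groups. With LPS in shielded mice 8 of the 9 neuron markers and all 8 oligodendrocyte markers were called lower, against 35.1% of all genes. Without the libraries with conflicting labels 3 of the 9 and 2 of the 8 were called lower, against 19.0% of all genes. Cbfa2t3 was likewise highest, at 3.27 CPM, in the third of the shielded LPS libraries. The part of these cells in the Runx1t1 and Cbfa2t3 values was not tested.

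**Figure D3:**
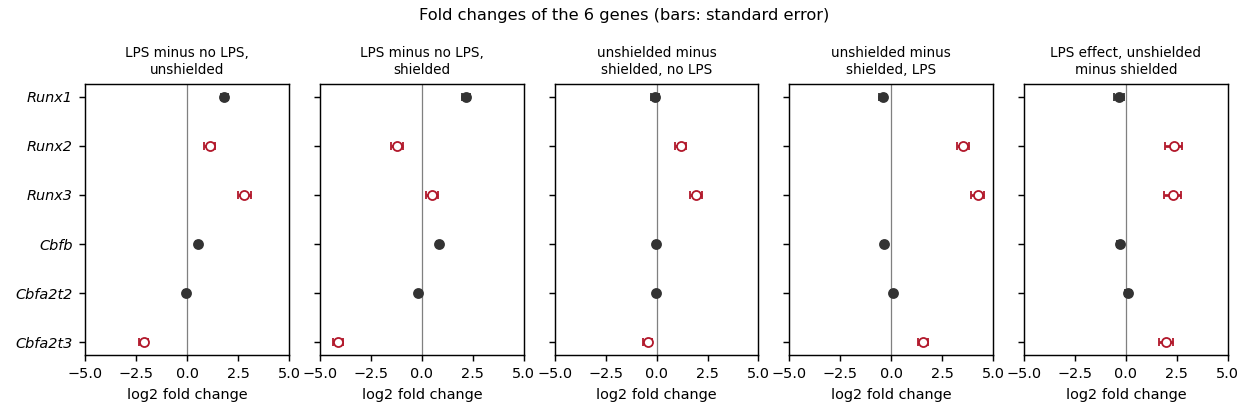
Log2 fold changes of the 6 genes in the 5 comparisons, with standard errors, one panel each. Open red symbols are Runx2, Runx3 and Cbfa2t3, which were noted for these differences and carry no test, and filled dark symbols are the other 3. Runx2 and Runx3 lie furthest right after LPS (3.53 and 4.24), and Cbfa2t3 furthest left with LPS in shielded mice (-4.12).

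Counts of called genes over the whole table give the background for the 3 tested members. With LPS in unshielded mice 24.3% of the 18875 genes were called higher and 18.8% lower, and with LPS in shielded mice 32.4% higher and 35.1% lower, and Runx1 and Cbfb were called higher in both. Between unshielded and shielded mice without LPS 3.98% were called higher and 6.85% lower, and the adjusted p of the tested members ran from 0.852 to 0.981 (0.828 to 0.992 without the libraries with conflicting labels). The 2043 calls over all genes were 292 without those libraries and 1094 to 2353 with 1 library left out, the lowest without unshielded library 3 lacking LPS. After LPS 19.1% were called higher and 25.6% lower, and Cbfb was called lower. For the difference of LPS effects 4.06% were called higher and 9.25% lower, and the adjusted p of the tested members ran from 0.141 to 0.637 (0.516 to 0.877 without the libraries with conflicting labels, edgeR). The 2512 calls over all genes were 148 without those libraries, 1615 without shielded library 3 lacking LPS and 6391 without shielded LPS library 3. Scaled by library totals, the calls over all genes were 2656 higher and 6520 lower in unshielded and 4042 higher and 9131 lower in shielded mice, against 4585 and 3543, and 6119 and 6619, with TMM. The comparisons share libraries, so values from different ones are not independent of each other.

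Genes that work with Runx proteins were followed as lists, which were drawn up with earlier results of these data known. Of the 18 corepressor genes tested, 8 were called higher and 2 lower with LPS in unshielded mice (median log2 fold change 0.19, against -0.06 over all genes), and 12 higher and 2 lower in shielded mice (0.39, against -0.14). Over all genes 24.3% were called higher and 18.8% lower in unshielded mice, and 32.4% and 35.1% in shielded mice, and the counts of the lists below stand beside the same shares. The genes called lower were Tle1 and Tle2, Groucho corepressors that bind the C-terminal end of Runx proteins, in both kinds of mice. Tle1 fell to 18.0 ± 2.59 CPM with LPS, against 79.9 ± 9.40 CPM without, in unshielded mice (log2 fold change -2.15 ± 0.16, adjusted p = 1.02e-06). In shielded mice it had 19.2 ± 0.66 CPM with LPS and 27.2 ± 6.30 CPM without (-0.50 ± 0.16, adjusted p = 0.0142, edgeR), and the difference of the effects was -1.65 ± 0.22 (adjusted p = 0.00195). Tle3, a relative of Tle1, rose with LPS in unshielded mice to 152 ± 27.9 CPM with LPS, against 73.6 ± 7.58 CPM without (1.05 ± 0.13, adjusted p = 4.57e-05, edgeR). Hdac4, a class II histone deacetylase, rose in both, by 1.44 ± 0.16 in unshielded mice and 1.72 ± 0.16 in shielded mice.

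Among 17 coactivators and modifiers, 7 were called higher and 2 lower with LPS in unshielded mice (median 0.13) and 8 higher and 2 lower in shielded mice (median 0.30). Pim1, a kinase that phosphorylates Runx proteins, rose to 138 ± 28.0 CPM with LPS, against 30.7 ± 4.87 CPM without, in unshielded mice (log2 fold change 2.16 ± 0.17, adjusted p = 1.66e-06, edgeR). In shielded mice it had 122 ± 23.0 CPM with LPS and 24.3 ± 1.44 CPM without (2.32 ± 0.18, adjusted p = 3.45e-07, edgeR). Prmt1, an arginine methyltransferase that modifies Runx1, rose by 1.55 ± 0.10 in shielded mice. Wwp1, a ubiquitin ligase that targets Runx proteins, fell by 1.55 on the log2 scale in unshielded mice and by 0.95 in shielded mice, and was higher in unshielded mice without LPS (0.97 ± 0.11, adjusted p = 0.000259, edgeR).

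Of the 21 transcription factor partners tested, 4 (Cebpb, Elf4, Spi1 and Tcf12) were called higher with LPS in each kind of mouse, against 24.3% of all genes in unshielded and 32.4% in shielded mice. Another 7 were called lower in unshielded mice, against 18.8% of all genes, and 8 in shielded mice, against 35.1%, with Erg, Fli1, Lmo2 and Lyl1 in both. Cebpb, a basic leucine zipper factor of myeloid cells, rose by 2.62 ± 0.17 in unshielded and 2.58 ± 0.17 in shielded mice, and Spi1 (PU.1) by 0.58 ± 0.13 and 0.96 ± 0.13. Lmo2, an adaptor of the Tal1 complex, fell to 106 ± 11.2 CPM with LPS, against 265 ± 20.6 CPM without, in unshielded mice, and had 151 ± 14.9 against 330 ± 16.2 CPM in shielded mice. Ets1, which binds DNA together with Runx1, was lower in unshielded mice: 23.3 ± 6.93 against 89.6 ± 10.3 CPM after LPS (log2 fold change -1.94 ± 0.20, adjusted p = 2.13e-05) and 38.9 ± 5.40 against 85.0 ± 15 CPM without (-1.13 ± 0.20, adjusted p = 0.00282, edgeR). Tal1 was lower in unshielded than in shielded mice after LPS, at 12.3 ± 2.85 against 39.6 ± 9.37 CPM (-1.69 ± 0.19, adjusted p = 3.29e-05, edgeR).

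Of 30 genes described elsewhere as Runx targets 24 were tested. With LPS 12 were called higher in each kind of mouse, Ccl3, Ccl5, Ccr7, Cdkn1a, Csf2rb, Itgal, Itgb2, Mmp13, Nfe2, Spi1, Spp1 and Zbtb7b, against 24.3% of all genes in unshielded and 32.4% in shielded mice. Over all genes the 4037 called higher in both were 88% of those called in unshielded and 66% of those called in shielded mice. Another 2 were called lower in unshielded mice (Cd36 and Irf8) and 4 in shielded mice, against 18.8% and 35.1% of all genes. The median log2 fold change was 0.58 in unshielded and 0.20 in shielded mice, against -0.06 and -0.14 over all genes. Several of these genes are known to respond to LPS in macrophages.
Ccl5, a T cell chemokine, had 204 ± 55.7 CPM with LPS and 4.34 ± 3.95 CPM without in unshielded mice (log2 fold change 5.53 ± 0.53), and 305 ± 65.8 against 3.15 ± 0.76 CPM in shielded mice (6.60 ± 0.55). Spp1, a secreted phosphoprotein that Runx2 regulates in bone, had 1140 ± 118 CPM with LPS and 69.3 ± 21.8 CPM without in unshielded mice, and 360 ± 19.4 against 17.4 ± 3.71 CPM in shielded mice. Spp1 was also higher in unshielded than in shielded mice, by 1.67 ± 0.21 after LPS (adjusted p = 5.94e-05) and by 1.99 ± 0.21 without (adjusted p = 0.000229, edgeR). Itgal, an integrin chain of leukocytes whose promoter is described as bound by Runx proteins, was higher without LPS in unshielded mice, at 161 ± 27.3 against 36.1 ± 17.6 CPM (2.15 ± 0.37, adjusted p = 0.00322, edgeR). Irf8, a factor of microglia and dendritic cells, was lower in unshielded mice after LPS, at 268 ± 40.9 against 487 ± 109 CPM (-0.86 ± 0.15, adjusted p = 0.000619, edgeR). It was the one target called for the difference of LPS effects (-0.75 ± 0.21, adjusted p = 0.0357, edgeR).
Without the 2 libraries with conflicting labels 22.4% of all genes were called higher and 19.0% lower with LPS in shielded mice. Of the lists, 5 corepressors, 6 coactivators and modifiers, 4 transcription factor partners and 8 targets were then called higher, and 2, 2, 6 and 1 lower. For the shield without LPS the calls of Ets1 (-1.04, adjusted p = 0.0807) and Itgal (1.51, adjusted p = 0.162) were lost, and those of Spp1 (1.68, adjusted p = 0.03) and Wwp1 (0.71, adjusted p = 0.029) were kept. Of the differences of LPS effects named above, that of Tle1 was kept (-1.37, adjusted p = 0.0283) and that of Irf8 was lost (-0.76, adjusted p = 0.22, edgeR).

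**Figure D4:**
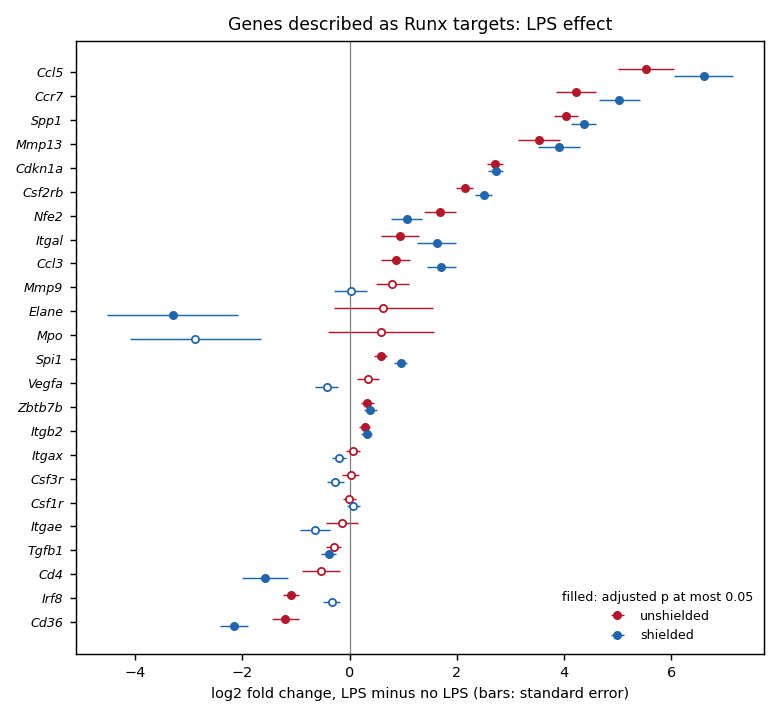
Log2 fold change with LPS of the 24 tested genes described as Runx targets, with standard errors, in unshielded (red) and shielded (blue) mice, ordered by the unshielded value. Filled symbols have an adjusted p of at most 0.05. Ccl5 lies furthest right in both (5.53 and 6.60), and Cd36 lies left of zero in both.

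The genes whose pattern over the 12 libraries was most like that of each member were found by the root mean square difference of centred log2 CPM among 9266 candidates. For Runx3 they were Clec4n (0.35 log2), a C-type lectin receptor, Pde7b (0.41) and Tgfbi (0.52), and for Runx2 they were Cpne2 (0.40), Plbd1 (0.40) and Stard13 (0.42). Clec4n averaged 163 ± 30 CPM in unshielded LPS libraries, 26.3 ± 2.64 CPM in unshielded mice without LPS, 13.3 ± 3.34 CPM in shielded LPS libraries and 6.43 ± 0.65 CPM in shielded mice without LPS, the same order as Runx3. Plbd1 averaged 72.6 ± 8.89, 63.7 ± 14.6, 7.16 ± 3.31 and 21.1 ± 2.59 CPM in those 4 groups, and was lowest in shielded LPS libraries like Runx2. Runx1 was nearest to March1 (0.13), a ubiquitin ligase of antigen presentation, N4bp1 (0.14) and Naa25 (0.14). Cbfb was nearest to Rnf115 (0.04), Gnb1 (0.04) and Gtf2h1 (0.05), and Cbfa2t2 to Ubn1 (0.06), Dis3l2 (0.06) and Ctsa (0.07), with the small differences of genes that vary little. Cbfa2t3 was nearest to Snx29 (0.41), Dbp (0.45), a clock-controlled factor, and Ptprb (0.49), an endothelial phosphatase. Dbp averaged 7.04 ± 0.72 CPM in unshielded LPS libraries, 26.1 ± 6.94 CPM in unshielded mice without LPS, 2.63 ± 0.26 CPM in shielded LPS libraries and 25.6 ± 4.76 CPM in shielded mice without LPS. The likeness is a description of these libraries and says nothing of shared control.

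Runx genes are also used by other leukocytes and by cells that contaminate brain preparations, so the markers of those cells were summed in every library. The 14 T and NK cell markers, cells in which Runx3 is prominent, summed to 8.80 to 9.43 CPM in unshielded LPS libraries, 3.40 to 4.19 CPM in unshielded mice without LPS, 7.20 to 13.2 CPM in shielded LPS libraries and 4.98 to 5.67 CPM in shielded mice without LPS. Cd3e had no count in the shielded LPS libraries and stayed below 0.3 CPM in all others. The summed T and NK markers overlapped between unshielded and shielded LPS libraries. Of the 7 tested, Gzma, Gzmb and Prf1 were called higher with LPS in both kinds of mice. Over all genes 24.3% were called higher in unshielded and 32.4% in shielded mice. Cd5 was called lower in both, and Eomes in shielded mice only, against 18.8% of all genes in unshielded and 35.1% in shielded mice. The part of these cells in the Runx3 values was not tested. The 6 plasmacytoid dendritic cell markers, cells in which Runx2 is prominent, summed to 14.8 to 18.9 CPM, 26.4 to 32.8 CPM, 14.3 to 22.2 CPM and 22.8 to 33.6 CPM in those 4 groups. Without Pacsin1, the most abundant of them, the other 5 summed to 3.66 to 4.49 CPM in unshielded LPS libraries, 3.42 to 3.54 CPM in unshielded mice without LPS, 9.80 to 10.5 CPM in shielded LPS libraries and 4.36 to 5.93 CPM in shielded mice without LPS. Of these 5, Cox6a2 had 3.41 ± 0.38 CPM in unshielded LPS libraries and 9.04 ± 1.08 CPM in shielded LPS libraries (log2 fold change -1.41 ± 0.17, adjusted p = 4.51e-05). Pacsin1 had 13.2 ± 2.17 and 7.68 ± 3.95 CPM in those libraries (0.78 ± 0.30, adjusted p = 0.0555, edgeR). In shielded LPS libraries 1 to 3 Pacsin1 had 4.49, 6.45 and 12.1 CPM. The neuron marker sums of those libraries, 36.5, 68.2 and 181 CPM, had the same order. Ccr9, Klk1 and Ly6d stayed below 1 CPM in every library. The part of plasmacytoid dendritic cells in the Runx2 values, and of neurons in the Pacsin1 values, was not tested. The 8 B cell markers summed to 40.1 to 64.4 CPM, 274 to 325 CPM, 47.1 to 56.3 CPM and 345 to 409 CPM in those groups, mostly from Ighm, and Cd79a, Ms4a1 and Pax5 stayed below 1 CPM in every library. The B cell sums were lower with LPS in both kinds of mice, as Cbfa2t3 was. Of the 5 tested, Cd22, Cd79b, Ebf1 and Ighm were called lower in both. Over all genes 18.8% were called lower in unshielded and 35.1% in shielded mice. Mean Ms4a1 (0.243 against 0.159 CPM) and Pax5 (0.167 against 0.0933 CPM) were higher with LPS in unshielded mice. The part of B cells in the Cbfa2t3 value was not tested.
The 8 monocyte markers summed to 336 to 467 CPM in unshielded LPS libraries, 139 to 166 CPM in unshielded mice without LPS, 169 to 291 CPM in shielded LPS libraries and 121 to 145 CPM in shielded mice without LPS. The 10 neutrophil markers summed to 277 to 1034 CPM, 51.8 to 159 CPM, 307 to 522 CPM and 165 to 388 CPM in the same groups, with overlap between the unshielded and shielded LPS libraries. The most abundant monocyte marker, F13a1, had 194 to 241 CPM in unshielded LPS libraries, 100 to 139 CPM in unshielded mice without LPS, 72.3 to 123 CPM in shielded LPS libraries and 78.4 to 102 CPM in shielded mice without LPS. The other 7 summed to 142 to 231 CPM, 26.8 to 38.9 CPM, 92.7 to 168 CPM and 42.6 to 59.6 CPM in those groups, so the unshielded and shielded LPS libraries overlapped without F13a1. With LPS 7 of the 8 monocyte markers were called higher in unshielded and 5 in shielded mice, against 24.3% and 32.4% of all genes. Ccr2 was called lower with LPS in unshielded (-1.05 ± 0.21, adjusted p = 0.00157) and shielded mice (-1.57 ± 0.22, adjusted p = 4.58e-05, edgeR). After LPS F13a1 was higher (1.30 ± 0.20, adjusted p = 0.000306) and Ly6i lower (-1.42 ± 0.27, adjusted p = 0.00114, edgeR) in unshielded mice. The part of monocytes and neutrophils in the Runx3 and Runx2 values was not tested.

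Markers of marrow-derived brain macrophages moved with the shield, and part of them with LPS too. With LPS in shielded mice 5 of the 8 were called lower and Cd38 higher, against 35.1% and 32.4% of all genes. Their median log2 fold change was -1.15, or -1.54 without shielded libraries 2 and 3 lacking LPS. For the difference of LPS effects 4 of the 8 were called higher, against 4.06% of all genes. The median difference was 1.34, or 1.92 without those libraries. Besides Apoe, the other 7 of the 8 markers summed to 1900 to 2440 CPM in unshielded LPS libraries, 1790 to 2390 CPM in unshielded mice without LPS, 297 to 374 CPM in shielded LPS libraries and 486 to 897 CPM in shielded mice without LPS. The 10 microglia markers ran the other way, with 12790 to 13960 CPM, 15410 to 18440 CPM, 19170 to 22130 CPM and 25380 to 30240 CPM in the same groups. With Csf1r, the most abundant of them, counted, all shielded libraries lay above all unshielded ones. The other 9 summed to 7180 to 8140 CPM, 9820 to 12300 CPM, 12000 to 13200 CPM and 18000 to 21300 CPM in those groups. Unshielded libraries without LPS then overlapped the shielded LPS libraries. Mean Fcrls was higher in unshielded mice after LPS (2660 against 2240 CPM) and without LPS (2120 against 1760 CPM). Mean Gpr34 was higher in them after LPS (84.8 against 78 CPM). Ms4a7, a marker of macrophages from the marrow, had 146 ± 15.7 CPM in unshielded LPS libraries against 6.60 ± 5.43 CPM in shielded LPS libraries, and P2ry12, a microglial receptor, had 350 ± 44.6 against 580 ± 53.7 CPM. The macrophage markers were higher in unshielded mice, as Runx3 and Runx2 were, and the microglia sums were lower. In unshielded mice the macrophage sums without Apoe overlapped with and without LPS. Axl, the most abundant of those 7, had 1480 ± 188 CPM with LPS and 1510 ± 204 CPM without in unshielded mice. Of the 8 markers, Cd38 and Tlr8 were called higher with LPS in unshielded mice and Clec12a lower. Over all genes 24.3% were called higher and 18.8% lower. The other 5 were not called. The part of macrophages and microglia in the Runx3 and Runx2 values was not tested. The 8 endothelial markers summed to 106 to 167 CPM in unshielded LPS libraries, 281 to 312 CPM in unshielded mice without LPS, 108 to 133 CPM in shielded LPS libraries and 201 to 324 CPM in shielded mice without LPS. The sum was lower with LPS, as Cbfa2t3 was. With LPS 7 of the 8 were called lower in unshielded and 5 in shielded mice, against 18.8% and 35.1% of all genes. Cdh5 alone was called higher, by 0.76 ± 0.22 in unshielded (adjusted p = 0.014) and 1.03 ± 0.22 in shielded mice (adjusted p = 0.00155, edgeR). The part of endothelial cells in the Cbfa2t3 value was not tested.

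**Figure D5:**
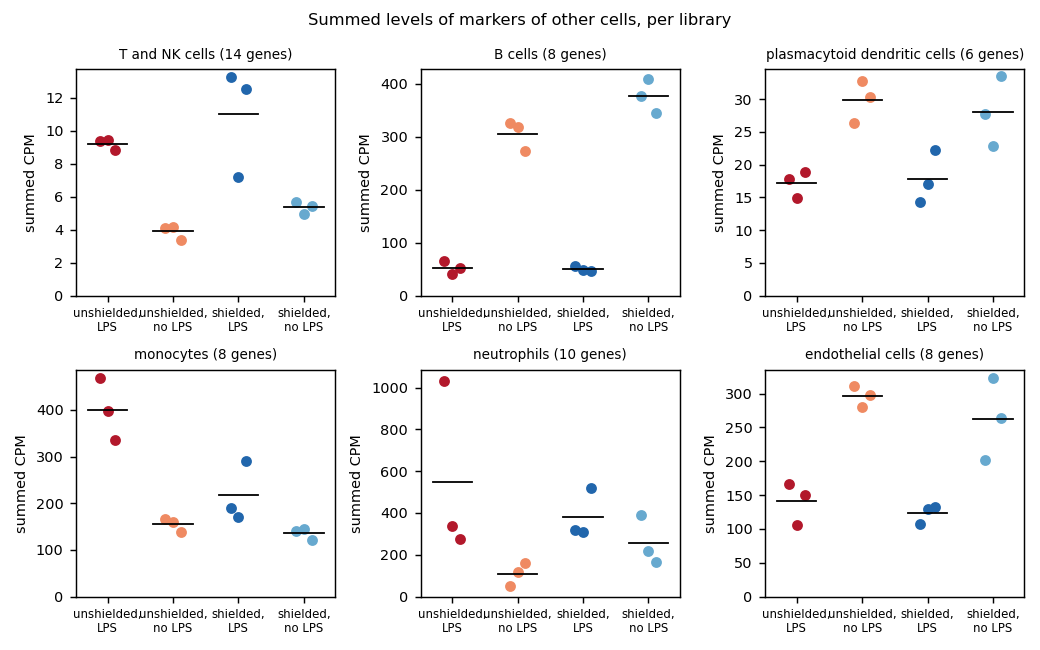
Summed CPM per library (linear axis from 0) of 6 marker lists of other cells, by group, with points for libraries and lines for group means. Monocyte markers reach 336 to 467 CPM in unshielded LPS libraries, above all other groups with F13a1 counted and overlapping the shielded LPS libraries without it, while T and NK markers stay at or below 13.2 CPM everywhere.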

How the data were processed

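RNA was linearly amplified before library preparation, per the labels' protocols. The submitters' processing notes name FastQC, STAR, HTSeq and mouse build mm9, without versions. Annotation release and strand setting: not given in the sources used here. As deposited, the values are raw counts of reads for each gene. Of 36491 Ensembl identifiers, 254 had no symbol and 12 shared one.

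The 6 genes and all lists were chosen with earlier results of these data known. CPM are those counts after TMM scaling. The test was edgeR 4.0.16 in R 4.3.3 (two-sided robust quasi-likelihood fit of all 12 libraries, filterByExpr with minimum count 10 and minimum total 15, Benjamini-Hochberg adjustment over 18875 genes, threshold 0.05), and it was tested on simulated data. SE is the absolute log2 fold change over the square root of F. Log2 CPM used a prior count of 2. Exon lengths and overlaps come from GENCODE M21, and sequences from RefSeq on GRCm38.p6, a different build from mm9. Symbols were matched through the reference names.

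Genes besides the members were named by rule: up to 2 called genes per list, comparison and direction with the largest fold change, where mean log2 CPM reached 3, and the 3 genes most similar to each member. Other names (all shared calls of a list, single markers, Runx1t1) were added after their values were seen. The 17 lists include cell markers.

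Chi-square per degree of freedom between libraries of a group was at least 11.2, so none were copies. Replicate numbers are those of the titles. Deviations of same-numbered shielded LPS and no-LPS libraries correlated at 0.112, 0.194 and 0.547, and those of unshielded ones at -0.115, -0.0943 and 0.0199. Between unshielded and shielded libraries they correlated at 0.14, -0.0165 and 0.123 without LPS and at -0.264, 0.152 and 0.478 after LPS. A replicate block was run as an alternative in every comparison. Alternatives were other scalings, DESeq2 1.42.0, other filters, libraries left out and other readings of the conflicting labels. Counts limit precision for Runx2 and Cbfa2t3 in shielded LPS libraries.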

Additional observations from a re-analysis of the deposited data

Results flagged for a closer look

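The difference of LPS effects on Runx2, unshielded minus shielded, was 2.34 on the log2 scale, and it was flagged because the direction differed. All 3 unshielded LPS libraries lay above all 3 unshielded libraries without LPS, and all 3 shielded LPS libraries lay below all 3 shielded libraries without LPS. Runx2 was chosen for its differences in these libraries, so no p is given for it here, and the difference was not tested as independent evidence.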

How the results depend on the processing

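The count of called genes depended most on the libraries with conflicting labels. Without them it was 8369 for LPS in shielded mice (12738 with them), 292 for the shield without LPS (2043) and 148 for the difference of LPS effects (2512). Grouped by the treatment field it was 0 for LPS in shielded mice, 117 for LPS in unshielded mice, 0 for the shield without LPS, 1464 for the shield after LPS and 0 for the difference. That grouping also reversed Cbfa2t3 after LPS (-1.47) and for the difference (-1.17), Runx1 after LPS (0.06) and for the difference (0.069), and Cbfa2t2 after LPS (-0.035) and for the difference (-0.058), and gave Runx3 with LPS in shielded mice as -0.21. Under it the LPS calls of Runx1 and Cbfb were lost in unshielded mice (adjusted p = 0.147 and 0.3) and in shielded mice (adjusted p = 0.792 for both), as was that of Cbfb after LPS (-0.12, adjusted p = 0.901, edgeR). Leaving out 1 library gave 1094 to 2353 calls for the shield without LPS (1094 without unshielded library 3 lacking LPS, 1171 without unshielded library 1, 1139 without shielded library 2) and 1615 to 6391 for the difference (1615 without shielded library 3 lacking LPS, 1635 without unshielded library 2, 6391 without shielded LPS library 3). Without a filter on low counts the difference had 1571 calls. The sign of Cbfa2t2 without LPS, close to zero, turned under RLE size factors (0.001), library totals (0.023), DESeq2 (0.003), at least 10 counts in every library (0.012), the conflicting libraries left out (0.013) or regrouped (0.022) and only the groups compared (0.015). With 1 library left out that value ran from -0.042 to 0.046, Cbfa2t2 after LPS from -0.04 to 0.10 and for the difference from -0.031 to 0.11, and Runx1 without LPS from -0.184 to 0.069. The cause was not tested. Of 624 values of members under alternatives 592 kept their direction and their side of the threshold or, untested, moved by less than the spread. With the replicate block the calls were 12882, 8457, 2205, 9090 and 2385 for LPS in shielded mice, LPS in unshielded mice, the shield without LPS, the shield after LPS and the difference, and it changed no call of a member. Depth limits Runx2 and Cbfa2t3 in shielded LPS libraries.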

Other observations

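Runx2os2, an antisense transcript at the Runx2 locus that is listed separately from Runx2, had 0.293 ± 0.083 CPM in unshielded LPS libraries, 0.996 ± 0.22 CPM in unshielded mice without LPS, 0.139 ± 0.11 CPM in shielded LPS libraries and 0.691 ± 0.039 CPM in shielded mice without LPS (SD, n = 3 each). It fell with LPS in both kinds of mice, by 1.73 on the log2 scale in unshielded mice (adjusted p = 0.00166) and by 2.24 in shielded mice (adjusted p = 0.000665, edgeR), so in unshielded mice it fell while Runx2 was higher. Values below 1 CPM rest on few reads.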
